A study of Mus musculus with 8 samples.

Results

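The genes that mark GABAergic interneurons, the inhibitory nerve cells of the hippocampus, were read gene by gene in wild-type and Mbd2-/- mice. The 10 members were taken by symbol from the 19201 genes of the expression table: Gad1, Gad2, Slc32a1, Sst, Npy, Pvalb, Vip, Cck, Calb2 and Reln. All 10 passed the minimum mean normalized count of 10 that 14504 genes reached. Hippocampal RNA came from 4 wild-type and 4 Mbd2-/- libraries, each made from the hippocampi of 2 pooled mice aged 10 to 12 weeks. The wild-type mice were C57BL/6 littermates of the mutants from heterozygous parents. The Mbd2-/- mice lack Mbd2, a protein that reads methylated CG dinucleotides, in every cell of the body, and their allele keeps the first exon. Per the study's supplementary methods, hippocampi of both sexes were grouped, in numbers balanced between the genotypes, and the sex make-up of each library is not given in the sources used here. Ribosomal RNA was depleted and paired ends of 100 bases were sequenced.

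Interneurons make GABA from glutamate with the decarboxylases encoded by Gad1 and Gad2, and load it into synaptic vesicles with the transporter encoded by Slc32a1. Subtypes of interneurons are told apart by the neuropeptides they release and the calcium-binding proteins they hold, such as somatostatin in cells that contact distal dendrites and parvalbumin in fast-spiking cells that contact cell bodies. Several of these markers are also made elsewhere in or near the hippocampus: Cck in some pyramidal cells, Calb2 in mossy cells of the mouse dentate gyrus and in thalamic neurons, Reln in Cajal-Retzius cells, and Gad2 and Gad1 in striatal neurons.

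Because Mbd2 reads methylated CG dinucleotides, the CG content of the promoters is shown first, although neither DNA methylation nor binding of Mbd2 was analysed here. Promoters of 300 bases, from 250 before to 50 after the start of the gene, were found in RefSeq (GRCm38.p6) for 9 of the 10 members, and Pvalb had 2. CG dinucleotides numbered 47 in the promoter of Reln, 24 in Npy, 21 in Gad1, 17 in Slc32a1, 14 in Gad2, 13 in Sst, 10 in Cck and 4 in Vip, and 25 and 5 in the promoters of Pvalb, beside a median of 7 over 32851 promoters. The 150 bases before the start are printed for 6 members that span the range from the most to the fewest CG dinucleotides, 3 of them lower and 3 higher in Mbd2-/- libraries, in lower case with every CG in capitals. They are Gad1 (chr2:70561979-70562128, plus strand), Gad2 (chr2:22622177-22622326, plus strand), Reln (chr5:22344706-22344855, minus strand), Npy (chr6:49822560-49822709, plus strand), Sst (chr16:23890845-23890994, minus strand) and Vip (chr10:5639068-5639217, plus strand). In Sst the motif TGACGTCA, a palindrome bound by the cAMP-responsive factor CREB, is also in capitals as a whole.
Gad1: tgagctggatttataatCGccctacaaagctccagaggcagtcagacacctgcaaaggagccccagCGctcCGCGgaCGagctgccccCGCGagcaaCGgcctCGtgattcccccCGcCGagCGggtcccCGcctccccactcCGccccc
Gad2: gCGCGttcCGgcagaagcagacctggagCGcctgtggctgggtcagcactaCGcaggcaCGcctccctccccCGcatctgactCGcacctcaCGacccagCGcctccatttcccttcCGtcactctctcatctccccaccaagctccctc
Reln: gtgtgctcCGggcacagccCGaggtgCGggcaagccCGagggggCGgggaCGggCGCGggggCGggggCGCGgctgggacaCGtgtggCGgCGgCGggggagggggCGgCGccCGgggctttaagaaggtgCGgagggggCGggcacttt
Npy: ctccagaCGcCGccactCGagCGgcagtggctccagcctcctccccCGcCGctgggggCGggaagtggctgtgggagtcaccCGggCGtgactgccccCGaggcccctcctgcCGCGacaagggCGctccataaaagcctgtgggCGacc
Sst: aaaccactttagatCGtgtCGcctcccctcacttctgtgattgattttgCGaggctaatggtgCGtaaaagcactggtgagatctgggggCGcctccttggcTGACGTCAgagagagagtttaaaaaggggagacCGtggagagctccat
Vip: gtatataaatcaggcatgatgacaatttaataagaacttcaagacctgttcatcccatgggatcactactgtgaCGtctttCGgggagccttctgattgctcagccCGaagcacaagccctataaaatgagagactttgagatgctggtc
The motif TGACGTCA, which reads alike on both strands, was found in the promoter of Sst and in none of the other 8 matched genes, and 588 of all promoters (1.79%) hold it. CG-rich promoters belonged to members of both directions: Reln and Gad1 were lower and Npy was higher in Mbd2-/- libraries.

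Of the 10 members, 4 fell and 5 rose in Mbd2-/- hippocampus, and Slc32a1 did not pass the test. Gad1, Gad2, Calb2 and Reln fell, while the 4 neuropeptide genes Sst, Npy, Vip and Cck and the calcium-binding protein gene Pvalb rose. A gene was called at an adjusted p under 0.05 by limma on log2(normalized count + 1), so that log2 fold changes are on that scale. Among all tested genes, 10.0% were called lower and 12.0% higher. The 2 genotypes did not overlap in any library for 7 of the 10 members, against 23.6% of all tested genes. The median log2 fold change was 0.02 over the members and -0.00 over all tested genes, since the members moved in both directions. The study lists Gad1 and Reln among its lower genes and Pvalb among its higher genes on these same libraries, so the calls of these 3 are not independent evidence. In bulk tissue, fewer cells of a type and less RNA per cell cannot be told apart.

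**Figure D1:**
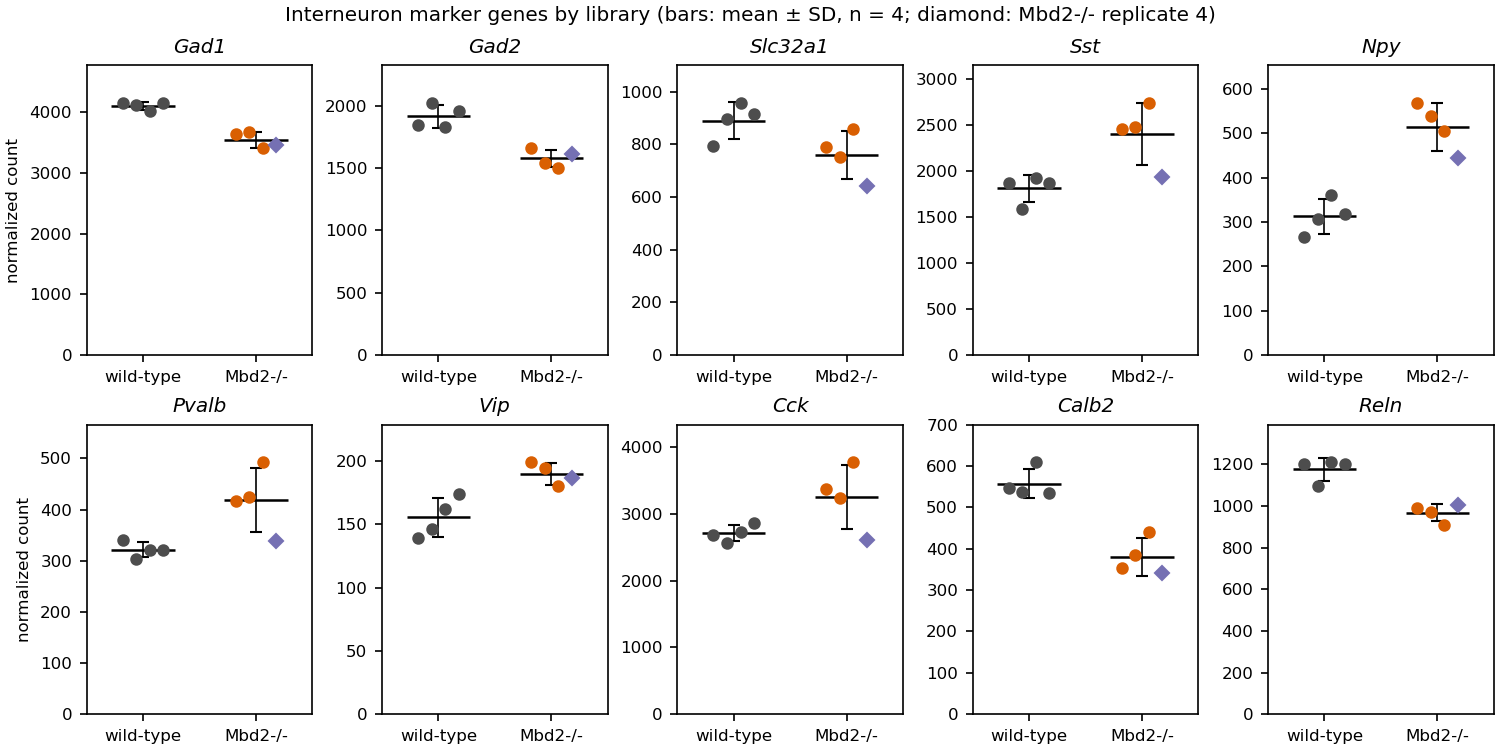
Normalized counts (linear axes from 0, one panel per gene) of the 10 markers in the 4 wild-type and 4 Mbd2-/- libraries, with the mean and SD of each genotype. The genotypes are apart for Gad1, Gad2, Sst, Npy, Vip, Calb2 and Reln, and Mbd2-/- replicate 4 lies among the wild-type libraries for Pvalb and Cck.

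The targeted gene was read first. Mbd2 stood at 295, 363, 371 and 354 normalized counts in wild-type replicates 1 to 4 and at 244, 239.6, 339 and 217 in Mbd2-/- replicates 1 to 4. Mbd2-/- replicate 3 lay above wild-type replicate 1, so the genotypes overlapped, although the gene fell (log2 fold change -0.43, standard error 0.117, limma adjusted p = 0.0174). Reads on the kept first exon remain in this allele, so the level over the whole gene is a weak check of the labels. Reads on genes ranged from 8439570 to 23790825 in wild-type and from 8087750 to 14020765 in Mbd2-/- libraries, and a member had between 93 and 7812 reads in a library. Counting error weighs most on Vip, which had the fewest reads of the members.

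The genes of GABA synthesis both fell, each by less than Calb2. Gad1 (mm9 chr2:70391129-70440071), the decarboxylase gene that provides most GABA in the cell body, had normalized counts of 4150.3, 4113, 4016 and 4149 in wild-type replicates 1 to 4 and 3638, 3667, 3403 and 3460.4 in Mbd2-/- replicates 1 to 4. Every Mbd2-/- library was below every wild-type library, with means of 4107 ± 63.4 in wild-type and 3542 ± 130.2 in Mbd2-/- hippocampus (SD, n = 4 each). The gene fell (log2 fold change -0.21, standard error 0.0462, limma adjusted p = 0.00417). Gad2 (mm9 chr2:22477725-22549394), the decarboxylase gene tied to nerve terminals, had normalized counts of 1842, 2021, 1832 and 1957 in wild-type replicates 1 to 4 and 1657, 1540.0, 1503 and 1611 in Mbd2-/- replicates 1 to 4. The genotypes were again apart, at 1913 ± 91.4 in wild-type and 1578 ± 69.4 in Mbd2-/- hippocampus (SD, n = 4 each), and Gad2 fell (log2 fold change -0.28, standard error 0.0543, limma adjusted p = 0.00228). The ratio of the decarboxylases was close to the same in both genotypes: log2(Gad1/Gad2) was 1.10 ± 0.0631 in wild-type and 1.17 ± 0.0644 in Mbd2-/- hippocampus (SD, n = 4 each), with overlapping ranges.

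Slc32a1 (mm9 chr2:158436494-158441484), the vesicular GABA transporter gene, had normalized counts of 794, 896, 956 and 913 in wild-type replicates 1 to 4 and 789, 749.9, 859 and 641 in Mbd2-/- replicates 1 to 4. Mbd2-/- replicate 3 lay within the wild-type range and the lowest wild-type library, replicate 1, lay just above Mbd2-/- replicate 1. The means of 889.9 ± 68.6 in wild-type and 759.8 ± 91.2 in Mbd2-/- hippocampus (SD, n = 4 each) differed in the same direction as the decarboxylases without passing the threshold (log2 fold change -0.23, standard error 0.0820, limma adjusted p = 0.0518). The call depended on the setting: Slc32a1 passed in 7 of 14 alternatives that kept all libraries, among them edgeR (adjusted p = 0.0413) and DESeq2 (0.0369) on recovered reads. Without Mbd2-/- replicate 3 its adjusted p was 0.0122 in limma, and without wild-type replicate 3 it was 0.162.

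Calb2 had the deepest fall among the members. Calb2 (mm9 chr8:112661402-112692110) encodes calretinin, the calcium-binding protein of interneurons that contact other interneurons. Its normalized counts were 546, 537, 609 and 535 in wild-type replicates 1 to 4 and 352, 385, 442 and 341 in Mbd2-/- replicates 1 to 4. Each Mbd2-/- library was below each wild-type library, at 557 ± 35.1 in wild-type and 380.0 ± 45.0 in Mbd2-/- hippocampus (SD, n = 4 each), and the gene fell (log2 fold change -0.56, standard error 0.0815, limma adjusted p = 3.13e-04). Thalamic neurons also make Calb2, and 11 of 16 thalamus markers fell as well. Their summed normalized count was 8093 to 8462 in wild-type and 5771 to 6803 in Mbd2-/- libraries, and none of the 16 was at 0 in any library. The vesicular glutamate transporter gene Slc17a6 fell (log2 fold change -0.66, adjusted p = 1.51e-05), the nuclear receptor gene Rora also fell (log2 fold change -0.35, adjusted p = 0.0139), and the metabolic gene Pdp1 did not pass (log2 fold change -0.18, adjusted p = 0.0949). Their part in the fall of Calb2 was not tested.

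Reln (mm9 chr5:21390272-21850523), which encodes the secreted matrix protein reelin, had normalized counts of 1202, 1095, 1211 and 1202 in wild-type replicates 1 to 4 and 989.6, 972, 909 and 1004 in Mbd2-/- replicates 1 to 4. The genotypes did not overlap, at 1177 ± 55.3 in wild-type and 969 ± 42.2 in Mbd2-/- hippocampus (SD, n = 4 each), and Reln fell (log2 fold change -0.28, standard error 0.0572, limma adjusted p = 0.00291). The call ended, at -0.13 (adjusted p = 0.129), once the trend of each library with transcript length, described with the lengths of the members, was removed. Of 6 Cajal-Retzius cell markers 4 reached the count minimum, 1 of them fell, and none of the 6 was at 0 in any library. Their summed normalized count was 562 to 670.0 in wild-type and 465 to 530.4 in Mbd2-/- libraries. Cacna2d2, a calcium channel subunit gene, fell (log2 fold change -0.50, adjusted p = 4.44e-04), and Trp73, a transcription factor that defines these cells, had a log2 fold change of 0.15 that did not pass (adjusted p = 0.454). Whether they had a part in the value of Reln was not tested.

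Npy had the largest rise of the members. Npy (mm9 chr6:49772709-49779506) encodes neuropeptide Y, which dampens glutamate release. Its normalized counts were 265, 306, 360.1 and 319 in wild-type replicates 1 to 4 and 568, 539.6, 505 and 444 in Mbd2-/- replicates 1 to 4. The lowest Mbd2-/- library was above the highest wild-type library, with means of 313 ± 39.0 in wild-type and 514 ± 53.5 in Mbd2-/- hippocampus (SD, n = 4 each). The gene rose 1.65-fold (log2 fold change 0.72, standard error 0.0938, limma adjusted p = 1.41e-04) and was called in all 14 alternatives that kept every library and in all 8 fits that left 1 library out. It was the only member to pass in limma when the change had to exceed 1.2-fold.

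Sst (mm9 chr16:23889667-23890930), the somatostatin precursor gene, had normalized counts of 1863, 1587, 1917 and 1868 in wild-type replicates 1 to 4 and 2452, 2470.1, 2735 and 1927 in Mbd2-/- replicates 1 to 4. Mbd2-/- replicate 4 stood only just above the highest wild-type library, while the other Mbd2-/- libraries were well above it. The means came to 1809 ± 149.6 in wild-type and 2396 ± 339 in Mbd2-/- hippocampus (SD, n = 4 each), and Sst rose (log2 fold change 0.40, standard error 0.0902, limma adjusted p = 0.00652). With the length trend removed the call ended, at 0.12 (adjusted p = 0.260). Npy and Sst are often made by the same interneurons of the hippocampus. Within a library, log2(Npy/Sst) was -2.53 ± 0.198 in wild-type and -2.21 ± 0.153 in Mbd2-/- hippocampus (SD, n = 4 each), and these ranges overlapped.

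Pvalb (mm9 chr15:78021544-78036830), the parvalbumin gene, had normalized counts of 340.2, 304, 322 and 321 in wild-type replicates 1 to 4 and 416, 424, 493 and 339 in Mbd2-/- replicates 1 to 4. Mbd2-/- replicate 4 fell within the wild-type range just below wild-type replicate 1. The other 3 Mbd2-/- libraries lay above every wild-type library. The means came to 322 ± 14.8 in wild-type and 418 ± 62.7 in Mbd2-/- hippocampus (SD, n = 4 each), and Pvalb rose (log2 fold change 0.37, standard error 0.0931, limma adjusted p = 0.0111). This call also ended without the length trend, at 0.14 (adjusted p = 0.252). The balance between the somatostatin and parvalbumin markers was close in the genotypes, with log2(Sst/Pvalb) at 2.48 ± 0.0857 in wild-type and 2.52 ± 0.0377 in Mbd2-/- hippocampus (SD, n = 4 each). In contrast, log2(Calb2/Pvalb) was 0.79 ± 0.104 in wild-type and -0.13 ± 0.103 in Mbd2-/- hippocampus (SD, n = 4 each), with no overlap. Expressed in linear terms, Calb2 had more normalized counts than Pvalb in every wild-type library, and fewer in Mbd2-/- replicates 1 to 3.

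Vip and Cck had the weakest calls. Vip (mm9 chr10:4698927-4707323) encodes vasoactive intestinal peptide, made by interneurons that contact other interneurons. Its normalized counts were 139, 147, 162 and 174 in wild-type replicates 1 to 4 and 199, 195, 180.1 and 186 in Mbd2-/- replicates 1 to 4. All Mbd2-/- libraries were above all wild-type libraries, at 156 ± 15.6 in wild-type and 190.1 ± 8.53 in Mbd2-/- hippocampus (SD, n = 4 each), and Vip rose (log2 fold change 0.29, standard error 0.0916, limma adjusted p = 0.0316). Removing the length trend ended the call, at 0.15 (adjusted p = 0.301). It was not called by DESeq2 (adjusted p = 0.0643), and in limma its call held in 3 of the 8 fits that left 1 library out, with adjusted p-values of 0.0544 to 0.0997 without wild-type replicate 1, 2 or 3 or without Mbd2-/- replicate 1 or 2.

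Cck (mm9 chr9:121398943-121404807), the cholecystokinin precursor gene, had normalized counts of 2689, 2567, 2723 and 2866 in wild-type replicates 1 to 4 and 3374, 3232, 3771 and 2612 in Mbd2-/- replicates 1 to 4. Mbd2-/- replicate 4 lay within the wild-type range and the other 3 Mbd2-/- libraries lay above it. The means came to 2711 ± 123 in wild-type and 3247 ± 481 in Mbd2-/- hippocampus (SD, n = 4 each), and Cck was called higher by a narrow margin (log2 fold change 0.25, standard error 0.0845, limma adjusted p = 0.0472). No difference in either direction was called without the length trend, at -0.0036 (adjusted p = 0.977). Left out in turn, 7 of the 8 libraries each ended the call, with adjusted p-values of 0.0583 to 0.117. Without Mbd2-/- replicate 4 the log2 fold change was 0.35 (limma adjusted p = 8.54e-06).

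Mbd2-/- replicate 4 was set against Mbd2-/- replicates 1 to 3. Over 12164 genes its chi-square per degree of freedom against these libraries was 9.66 to 16.2, and that of every other pair within a genotype was 2.07 to 6.16. For 7 of the 10 members it was closer to the wild-type mean than the mean of the other 3 was, against 51.8% of all tested genes, and this held for all 5 members called higher and for 2 of the 4 called lower. It lay below the range of replicates 1 to 3 in 6 members, above it in 1 and within it in 3, so that it was outside the range in 7 of 10 members, near the 68.5% of all tested genes. Relative to the wild-type mean, its log2 value of Sst was 0.09 against a mean of 0.50 in replicates 1 to 3, and that of Cck was -0.05 against 0.35. For Pvalb the log2 values were 0.08 and 0.46, and for Npy 0.51 and 0.79. Vip differed little, at 0.26 in replicate 4, within the range of the other libraries, and 0.30 on average in replicates 1 to 3. The lower genes were divided. Gad2 was at -0.25 in replicate 4 and at -0.29 in the others, and Reln at -0.23 and -0.30, so replicate 4 was closer to wild-type. It was farther for the other two, with Calb2 at -0.70 in replicate 4 and at -0.51 in the others and Gad1 at -0.25 and -0.20. A single library against 3 gives no test. Without replicate 4, the log2 fold change was 0.50 for Sst, 0.79 for Npy, 0.46 for Pvalb and 0.35 for Cck. Slc32a1, which was not called, was at -0.47 in replicate 4 and at -0.15 on average in the others. Its log2 fold change was -0.15 without replicate 4, beside -0.23 with all libraries.

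Transcript length moved with these differences. The 5 members called higher have transcripts of 566 to 1527 bases (median 798), and the 4 called lower have 1430 to 11702 bases (median 4549.5). Across all tested genes the log2 fold change and transcript length had a Spearman's rho of -0.47, a description across genes that share the same 8 libraries. In single libraries, the deviation from the wild-type mean and transcript length were related with a rho of -0.497, -0.444 and -0.494 for Mbd2-/- replicates 1, 2 and 3, of -0.104 for Mbd2-/- replicate 4 and between -0.0658 and 0.0658 for the wild-type libraries, over 14182 genes. Mbd2-/- replicate 4, with the smallest length trend of the Mbd2-/- libraries, had the lowest values among them of Sst, Npy, Pvalb and Cck, which rose, and also of Slc32a1 and Calb2, for which it was farther from wild-type than the mean of the others.

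**Figure D2:**
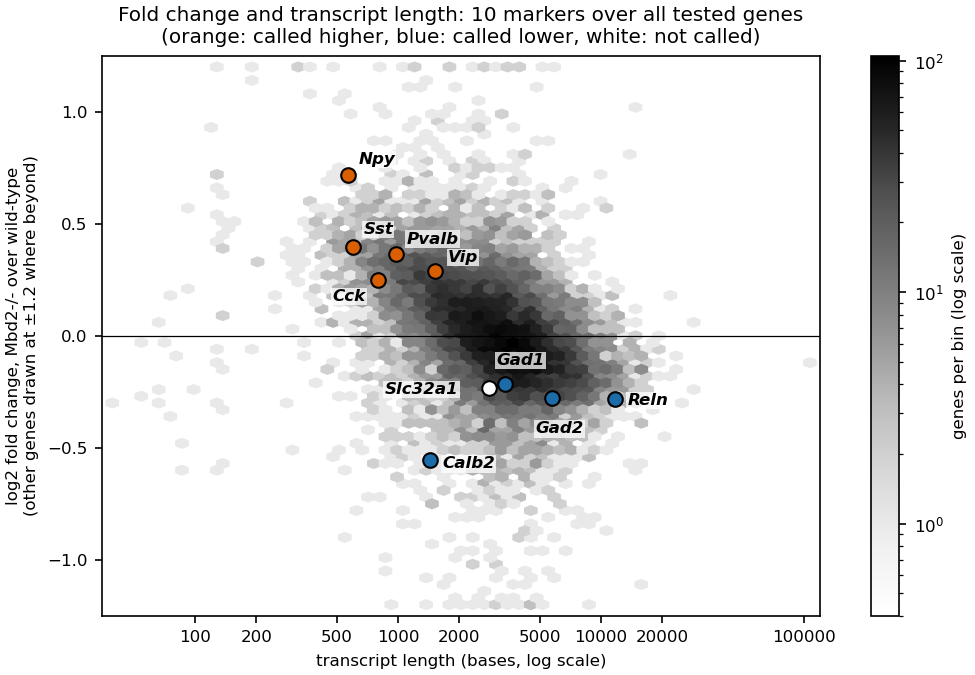
Log2 fold change (Mbd2-/- over wild-type) against transcript length in bases (log axis) for the 10 markers, drawn over the density of all tested genes with a length in grey. The 5 markers called higher are short, and Gad2 and Reln lie within the falling cloud of longer genes. Gad1, with 3355 bases, lies near the median of 3056.5 bases over all tested genes. Calb2 lies at a log2 fold change of -0.56 with a transcript of 1430 bases.

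After the trend with length was taken out of each library before the fit, 4 members were lower and 1 was higher, against 5.73% and 8.37% of the genes tested in that fit. Npy kept its rise, at 0.44 (adjusted p = 8.40e-04), and in each Mbd2-/- library its value was above the wild-type mean, by 0.50, 0.54, 0.33 and 0.39 on the log2 scale in replicates 1 to 4. Replicate 4 lay within the range of the other Mbd2-/- libraries in this setting. Calb2 fell further, at -0.71 (adjusted p = 2.43e-06). Gad1, at -0.19 (adjusted p = 0.00606), and Gad2, at -0.18 (adjusted p = 0.0271), stayed lower, and Slc32a1 passed the threshold, at -0.23 (adjusted p = 0.0448). The calls of Sst, Pvalb, Vip, Cck and Reln ended. Removing the trend also removes any change of biological origin that runs with length, and these sources cannot be told apart.

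**Figure D3:**
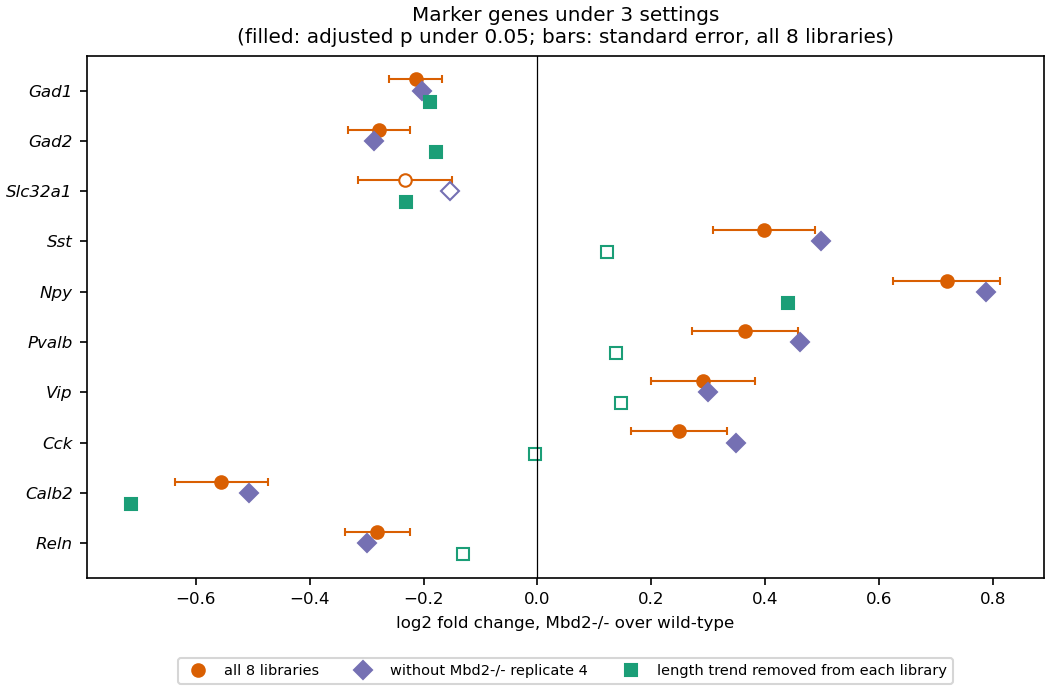
Log2 fold changes of the 10 markers with all 8 libraries (circles, bars show the standard error), without Mbd2-/- replicate 4 (diamonds) and after removal of the length trend (squares), filled where the limma adjusted p was under 0.05. Npy, Calb2, Gad1 and Gad2 are filled in all 3 settings, while Sst, Pvalb, Vip, Cck and Reln are open once the length trend is removed.

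Set against the general GABA markers of the same library, the subtype markers spread apart. The log2 ratio of each marker to the geometric mean of Gad1, Gad2 and Slc32a1 was higher in Mbd2-/- than in wild-type libraries by 0.96 for Npy, 0.64 for Sst, 0.61 for Pvalb, 0.53 for Vip and 0.49 for Cck, and it was lower for Calb2, with a difference of -0.31. Reln had a difference of -0.04, and its libraries overlapped between the genotypes. The genotypes did not overlap for 6 of these 7 markers, against 43.2% of 14501 tested genes set over the same denominator. The ratio to the GABA markers is one denominator shared by all 7, so these values are a description of make-up and not 7 separate results. With the length trend removed, the differences were 0.64 for Npy, 0.32 for Sst, 0.34 for Pvalb, 0.35 for Vip, 0.20 for Cck, -0.51 for Calb2 and 0.07 for Reln.

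**Figure D4:**
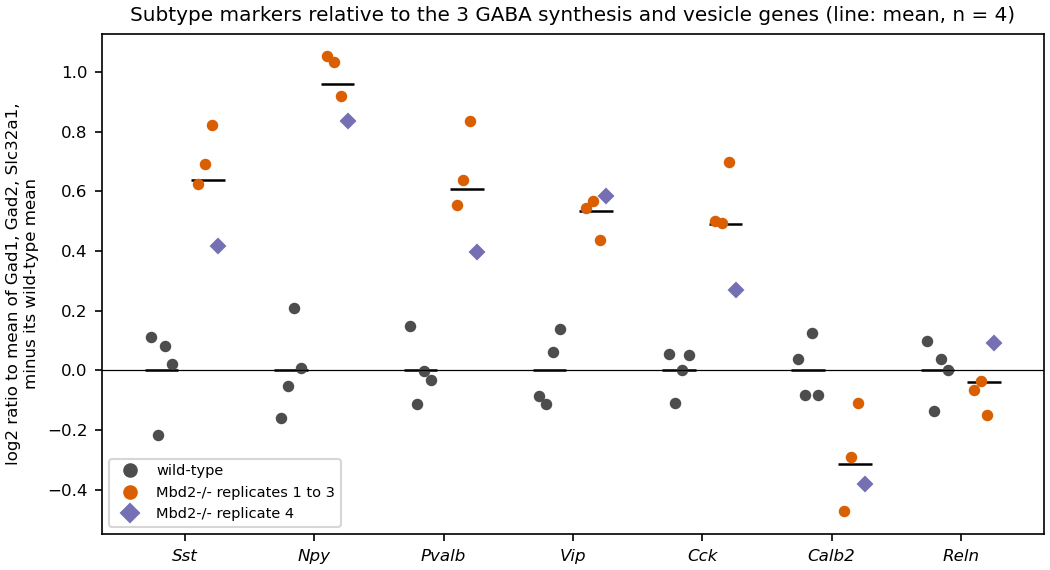
Log2 ratio of each of 7 markers to the geometric mean of Gad1, Gad2 and Slc32a1 in each library, minus its wild-type mean, for 4 wild-type and 4 Mbd2-/- libraries. Npy stands highest, with a genotype difference of 0.96, Calb2 stands lowest, with a difference of -0.31, and the libraries of both genotypes overlap for Reln.

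Levels of the markers were compared with each other per transcript length, in RPKM, the recovered reads scaled by transcript length and by the reads on genes of the library. In wild-type libraries Cck was highest, at 269 ± 11.4 RPKM, followed by Sst at 239 ± 18.6, Gad1 at 97.0 ± 1.72, Npy at 43.7 ± 5.39 and Calb2 at 30.8 ± 1.84 (SD, n = 4 each). Gad2, Pvalb and Slc32a1 followed at 26.4 ± 1.39, 26.1 ± 1.11 and 25.2 ± 1.93 RPKM, and their libraries overlapped from one gene to the next, as did those of Vip (8.07 ± 0.797) and Reln (7.97 ± 0.335). In Mbd2-/- libraries the order changed in the middle, where short and long transcripts were neighbours and RPKM was not corrected for the length trend. Npy, at 71.3 ± 7.70 RPKM, came to overlap with Gad1, at 82.8 ± 3.52 RPKM. Pvalb, at 33.5 ± 4.83 RPKM, stood above Gad2 (21.5 ± 1.17), Slc32a1 (21.3 ± 2.49) and Calb2 (20.8 ± 2.28), and the last 3 overlapped from neighbour to neighbour. Cck (319 ± 46.0 RPKM) and Sst (313 ± 42.9 RPKM) overlapped at the top, and Vip (9.77 ± 0.516 RPKM) and Reln (6.49 ± 0.335 RPKM) stayed at the bottom without overlap.

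Genes that act around the interneurons were called lower more often than higher, and this balance depended on the length trend. Of 90 tested genes on 8 lists of the pathway, 22 were lower and 4 higher, which is to be read beside 10.0% and 12.0% of all tested genes. With the length trend removed, 13 were lower and 8 higher, beside 5.73% and 8.37% of the genes tested in that fit. With Mbd2-/- replicate 4 left out as well, a setting chosen after the data were seen, 16 were lower and 11 higher. Over all genes of that last fit, 1216 were lower and 1676 higher. Among 8 genes of GABA uptake and breakdown, 1 rose and 1 fell, with a median log2 fold change of -0.10. Glul, the glutamine synthetase of astrocytes, rose (log2 fold change 0.30, adjusted p = 1.97e-04), and Slc38a1, a glutamine transporter of interneurons, fell (log2 fold change -0.30, adjusted p = 0.00143). Of 17 tested interneuron transcription factor genes, 1 fell, and their median log2 fold change was -0.11. This was Prox1 (log2 fold change -0.20, adjusted p = 0.0230), which also marks dentate granule cells, and its adjusted p was 0.0640 with the length trend removed.

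Other subtype markers went down more often than up. Of 26 tested, 8 fell and 2 rose, with a median log2 fold change of -0.17 beside -0.00 over all tested genes. The falls included Rab3b, a vesicle protein gene of Cck cells (log2 fold change -0.65, adjusted p = 3.05e-04), the fast-spiking potassium channel genes Kcnc2 (log2 fold change -0.36, adjusted p = 3.80e-04) and Kcnc1 (log2 fold change -0.31, adjusted p = 8.18e-04), and the nitric oxide synthase gene Nos1 (log2 fold change -0.28, adjusted p = 0.00151). Cnr1, the cannabinoid receptor gene that Cck interneurons express strongly, also fell (log2 fold change -0.27, adjusted p = 0.00472). Id2, a transcription regulator of neurogliaform cells that other cells make too, rose (log2 fold change 0.44, adjusted p = 2.59e-04). Removal of the length trend left 4 of the 26 lower and 1 higher. Rab3b, Kcnc2, Kcnc1, Cnr1 and Id2 kept their calls in that setting, at log2 fold changes of -0.62, -0.25, -0.18, -0.17 and 0.26, and Nos1 did not (-0.14, adjusted p = 0.109).

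The perineuronal net, a matrix coat around parvalbumin cells, had 3 of 7 genes lower and none higher. Over the list, 4 of 7 log2 fold changes were above 0 and the median was 0.06. The lower genes were the aggrecan gene Acan (log2 fold change -0.45, adjusted p = 0.0197), the link protein gene Hapln4 (log2 fold change -0.28, adjusted p = 0.00349) and the tenascin-R gene Tnr (log2 fold change -0.28, adjusted p = 0.00136), while Ncan, the neurocan gene and the most abundant of the list, had a log2 fold change of 0.06 that did not pass (adjusted p = 0.382). The balance of calls turned when the length trend was removed, to 3 higher, among them Ncan (log2 fold change 0.18, adjusted p = 0.0143), and 2 lower, and the median was 0.11. Of the 11 tested receptors for the member peptides, 1 fell, the somatostatin receptor gene Sstr4 (log2 fold change -0.32, adjusted p = 0.0103), and the most abundant one, Adcyap1r1, did not pass (log2 fold change -0.10, adjusted p = 0.182). All 5 GABA-B receptor genes had negative log2 fold changes, and 3 fell: Gabbr2 (log2 fold change -0.37, adjusted p = 2.02e-04), Gabbr1 (log2 fold change -0.15, adjusted p = 0.0265) and the auxiliary subunit gene Kctd16 (log2 fold change -0.25, adjusted p = 0.0382). Gabbr2 and Kctd16 stayed lower with the length trend removed and Gabbr1 did not (-0.06, adjusted p = 0.453).

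Of 10 reelin receptors and signal carriers, 3 fell and none rose, with a median log2 fold change of -0.08: the dynein regulator gene Pafah1b1 (log2 fold change -0.26, adjusted p = 0.0145), the kinase activator gene Cdk5r1 (log2 fold change -0.17, adjusted p = 0.0172) and the adaptor gene Crkl (log2 fold change -0.18, adjusted p = 0.0365). With the length trend removed, 1 of the 10 was lower and the median turned to 0.03, while without Mbd2-/- replicate 4 the calls were 4 lower and 1 higher. Among 6 carriers and regulators of the chloride gradient that GABA-A receptors use, Slc12a5, the chloride exporter of mature neurons, fell (log2 fold change -0.28, adjusted p = 5.59e-04), as did the kinase gene Wnk2 (log2 fold change -0.28, adjusted p = 0.00194), and the kinase gene Stk39 rose (log2 fold change 0.22, adjusted p = 0.00783). The median log2 fold change of these 6 was -0.07. It turned to 0.07 with the length trend removed, where 3 of the 6 were higher and 1 was lower.

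Markers of other tissues and cells moved between the genotypes as well, and their part in the values of the members was not tested. All 16 choroid plexus markers rose. Their summed normalized count was 24460.0 to 26171 in wild-type and 47310.2 to 53711 in Mbd2-/- libraries, with Ttr, which encodes transthyretin, at a log2 fold change of 1.32 and Enpp2 at 0.61. Of 8 tested striatum projection neuron markers, which come from cells that also make Gad1 and Gad2, 2 fell and 1 rose. Drd2, a dopamine receptor gene, fell (log2 fold change -1.17, adjusted p = 4.68e-04) from a mean of 42.3 to 18.3 normalized counts, Foxp1 fell (log2 fold change -0.26, adjusted p = 0.0114), and Pde10a did not pass (log2 fold change -0.13, adjusted p = 0.0914). Of the 11 striatum markers listed, 10 were present in the expression data. The summed normalized count of these 10 was 3028 to 3222 in wild-type and 2944 to 2991 in Mbd2-/- libraries. No choroid plexus or striatum marker present in the data was at 0 in any library.

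The labelled tissue carried its defining markers. All 14 hippocampal excitatory neuron markers were tested and none was at 0, with a summed normalized count of 108999 to 111566 in wild-type and 118039 to 126157 in Mbd2-/- libraries. Of these 14, 3 rose and 3 fell, among them Camk2a, the kinase gene of excitatory neurons, which rose (log2 fold change 0.27, adjusted p = 1.38e-04), while Slc17a7, the vesicular glutamate transporter gene, did not pass (log2 fold change -0.14, adjusted p = 0.0838). Glial markers rose, 6 of 8 for astrocytes, 6 of 8 for oligodendrocytes and 6 of 8 for microglia, with median log2 fold changes of 0.28, 0.20 and 0.30. Examples were Gfap (log2 fold change 0.46, adjusted p = 3.30e-05) and Mbp (log2 fold change 0.41, adjusted p = 2.82e-05), and the abundant astrocyte gene Slc1a2 did not pass (log2 fold change 0.17, adjusted p = 0.0525). Glial and choroid plexus markers were thus higher in the genotype in which the GABA synthesis genes were lower and 5 of the 10 members were called higher. A link between these differences was not tested. Of 8 endothelial markers 2 rose, of 9 neocortical layer markers 1 fell, and the 6 tested markers of olfactory and subventricular newborn neurons had a median log2 fold change of -0.10.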

How the data were processed

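RNA of 4 wild-type and 4 Mbd2-/- hippocampal libraries was measured by sequencing. According to the submitters' notes and the study's methods, the authors aligned reads to mm9 with STAR and compared genotypes with DESeq2, and the versions and the counting tool are not given in the sources used here. The deposited signal is a normalized count: the authors divided the reads of a gene by the size factor of its library. The authors' columns of their own comparison (mean, log2 fold change, standard error, Wald statistic, p-value and adjusted p-value) were not used. Library names in the table, C and K with a number, were taken as the labelled control and Mbd2-/- samples of that number.

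Read numbers were recovered by taking the smallest value above 0 of a library as 1 read, and 100% of values then came out whole to within 0.01 of a read. Reads on genes ranged from 8087750 to 23790825 per library. Reads are not independent molecules, so these depths cover counting error only. No library repeated another: the chi-square per degree of freedom between libraries of one genotype was 2.07 to 16.2, with the 3 highest values in pairs that hold Mbd2-/- replicate 4, and pairs across genotypes were not compared. Nothing says which animals share a litter, and p-values measure the spread between pools.

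The 14504 of 19201 genes whose normalized count averaged at least 10 were compared by limma 3.58.1 in R 4.3.3 (trend and robust moderation) after log2(normalized count + 1) was taken. The threshold was a Benjamini-Hochberg adjusted p under 0.05. On recovered reads edgeR 4.0.16 called 1422 genes lower and 1809 higher, DESeq2 1.42.0 called 1332 and 1656, and limma 1450 and 1735. Other alternatives changed the filter, pseudocount, scaling, moderation, library weights or minimum change, added a replicate block, left out each library, or removed the length trend. For that trend, the deviation of each library from the mean of all libraries in the fit was fitted on transcript length. The fitted curve, a spline with 5 degrees of freedom, was then subtracted from the library. The fit was tested on simulated data. Lengths came from GENCODE vM1 on mm9, matched by symbol for 16812 genes and by synonym for 1285 (94.3% of the table), with the longest protein-coding transcript used.

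The labels give both genotypes numbers 1 to 4. Deviations of same-numbered libraries correlated at -0.103, -0.0570, 0.0742 and 0.0355, and the main analysis was unpaired. Members and lists were chosen with earlier results of these data known. Named genes were the members, Mbd2, up to 6 called genes with the smallest p and the most abundant gene of each pathway list, and the 2 most abundant genes and the one with the smallest p of each list of other cells, and not every gene so named is described.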

Additional observations from a re-analysis of the deposited data

Results flagged for a closer look

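In 4 of 110 groups of 4 libraries, 1 library stood apart from the other 3 by a gap past the 95% critical value of Dixon's test, and chance alone gives this in about 1 in 20 groups. Sst in wild-type replicate 2 was 1587 normalized counts, against 1863 to 1917 in the other wild-type libraries. Reln in the same library was 1095, against 1202 to 1211 in the others. Calb2 in wild-type replicate 3 was 609, against 535 to 546 in the others. Wnk2, the kinase gene of the chloride list, was 2391 in wild-type replicate 3, against 2091 to 2130. None of the 10 members had such a gap among the Mbd2-/- libraries.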

How the results depend on the processing

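Of 14 alternatives that kept all libraries, those that changed only the filter, pseudocount, scaling, tool or moderation called 8 to 10 members. Cck was lost with no filter on low counts (adjusted p = 0.0508), with upper quartile scaling (0.0574) and with limma-voom (0.0603), and Vip with DESeq2 (0.0643), while Slc32a1 was gained with upper quartile scaling, edgeR, DESeq2 and limma-voom. With library weights, 2788 genes were lower and 2944 higher (1450 and 1735 before), and 7 pathway genes were higher (4 before). With the length trend removed, 1 member was higher (5 before), and 812 genes were lower and 1187 higher. Of the pathway genes, 13 were lower (22 before) and 8 higher. The median log2 fold change of the members was -0.067 (0.017 before). In that setting Cck changed sign to -0.0036 and Adcyap1r1 to 0.0080. When the change had to exceed 1.2-fold, 0 members were lower and 1 was higher, 23 genes were lower and 53 higher, and 0 pathway genes were lower and 0 higher by limma. With the length trend removed and Mbd2-/- replicate 4 left out together, an alternative chosen after seeing the data, 1 member and 11 pathway genes were higher, Adcyap1r1 was at 0.039 and Pde10a at 0.021. Other than as the construction of these settings shows, the cause was not tested.

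Leaving out each library in turn gave 3 to 5 members higher, 4 to 5 lower, 868 to 2559 genes lower, 1170 to 2596 genes higher, 14 to 31 pathway genes lower and 3 to 6 higher. The members called higher were 3 without wild-type replicate 1, 2 or 3 or Mbd2-/- replicate 1 or 2. Genes lower numbered 868, 878 and 902 without wild-type replicates 1, 3 and 4, 918 and 938 without Mbd2-/- replicates 1 and 2, and 2559 without Mbd2-/- replicate 4. Pathway genes lower numbered 14 without wild-type replicate 1.

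The shared numbers pair no animals, and 1 of the 4 Mbd2-/- libraries correlated best with the wild-type library of its own number. With the number as a replicate block, 5 members were lower and 5 higher, 1449 genes were lower and 1743 higher, and 21 pathway genes were lower and 5 higher. Slc32a1 passed under the block (adjusted p = 0.0329).

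A member had at least 93 reads in every library, and the fewest were those of Vip, whose values carry the most counting error of the members.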
